A study of Drosophila melanogaster with 12 samples.

Results

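The Antennapedia complex is the cluster of homeotic genes in bands 84A-B of the right arm of chromosome 3 of Drosophila melanogaster. Its windows were taken by position alone, as every window of the deposited replication timing (RT) tables on 3R from chr3R:6600100 to chr3R:7059900 of the dm6 assembly. This stretch runs from the flank proximal to lab to the flank distal to Antp, and it holds 455 of the 118985 windows of X, 2L, 2R, 3L and 3R. A window covers 1000 uniquely alignable bases. The RefSeq annotation of the same assembly places 61 genes there, of which 34 code for proteins and 19 for long noncoding RNAs.

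RT was measured by whole-genome sequencing of genomic DNA in 6 groups of 2 libraries each, all from females. The value of a window, rawRT, is a score of relative DNA copy number in which higher means more copies and earlier replication. In salivary gland and fat body it was scaled so that windows of the arms outside underreplicated (UR) regions average 0 and have unit SD. Follicle cell and wing disc values came from nuclei sorted by flow cytometry into G1 and S phase, so for these groups tissue and method cannot be told apart.

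The wild-type salivary glands were Oregon R. The SuUR salivary glands were w118; SuUR ES, a mutant of the Suppressor of Underreplication. The Rif1 salivary glands were w118 and carried the null alleles Rif1 1 and Rif1 2 over each other. All these glands came from 3rd instar larvae before wandering, about 20 larvae per genotype, and the mutant stocks differ from Oregon R in background as well as in the named gene. The fat bodies were Oregon R, 25 larvae per library, at 96 h after egg laying. The follicle cells were from adult Oregon R ovaries, about 200 pairs, and the wing discs from 3rd instar Yellow-white larvae. The study describes the salivary gland and fat body libraries as biological duplicates, and nothing used here says the same of follicle cell and wing disc, where the spread between libraries may be technical.

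Homeotic genes encode transcription factors that give each body segment its identity. Those of the Antennapedia complex act in the head and the anterior thorax, and those of the bithorax complex, farther along 3R, act in the posterior thorax and the abdomen. Both complexes are classical targets of Polycomb group repression, which keeps them silent outside the segments where they act. Polytene salivary gland cells copy their DNA repeatedly without dividing, and some late replicating regions there are left with fewer copies. In such cells a low score can stand for late replication or for incomplete replication, and these cannot be told apart from copy number alone.

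Most named members of the complex share a homeobox, the stretch of coding DNA for the DNA-binding homeodomain. It is printed for lab, pb and Antp, homeotic genes from the proximal, middle and distal parts of the complex, as the feature that names the family. Capitals mark the bases at which the 3 are identical. The sequences are from RefSeq (Release 6 assembly, which is dm6), 5′ to 3′ on the coding strand, and the bases printed are exonic. The homeobox of lab lies at chr3R:6662278-6662702 on the minus strand and is interrupted by 245 bases of intron. That of pb lies at chr3R:6711571-6711924 on the minus strand and is interrupted by 174 bases of intron. That of Antp lies at chr3R:6898357-6898536 on the minus strand and is uninterrupted.
lab: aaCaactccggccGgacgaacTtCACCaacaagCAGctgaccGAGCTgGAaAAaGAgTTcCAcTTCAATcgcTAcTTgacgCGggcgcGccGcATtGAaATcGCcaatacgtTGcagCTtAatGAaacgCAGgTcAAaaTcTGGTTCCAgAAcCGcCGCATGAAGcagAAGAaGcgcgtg
pb: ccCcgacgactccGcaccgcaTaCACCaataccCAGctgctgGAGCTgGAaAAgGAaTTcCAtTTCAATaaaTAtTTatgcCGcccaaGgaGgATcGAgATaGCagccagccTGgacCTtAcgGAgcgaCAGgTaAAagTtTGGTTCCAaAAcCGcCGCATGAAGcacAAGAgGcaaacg
Antp: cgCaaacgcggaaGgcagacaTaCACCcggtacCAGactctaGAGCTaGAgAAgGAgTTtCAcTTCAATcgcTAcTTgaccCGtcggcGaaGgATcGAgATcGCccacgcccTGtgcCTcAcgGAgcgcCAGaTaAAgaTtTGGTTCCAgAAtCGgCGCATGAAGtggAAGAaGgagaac
Of the 180 bases, 87 were identical in these 3 genes. Identity to the Antp homeobox was 76.7% for ftz, 65% for pb, 63.9% for lab, 63.3% for zen, 59.4% for zen2 and 45.0% for bcd. The rawRT of these genes did not follow this order in wild-type salivary gland, where Antp was the lowest and lab the highest.

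Averaged over the complex, the score rose from wild-type salivary gland through SuUR and Rif1 salivary gland to follicle cell and wing disc. In wild-type salivary gland the mean rawRT was -1.42 and -1.78 in libraries 1 and 2 (mean -1.60 ± 0.26, SD, n = 2). In SuUR salivary gland it was -0.73 and -1.12 (-0.92 ± 0.28), and in Rif1 salivary gland -0.28 and -0.46 (-0.37 ± 0.13). No value of one of these genotypes overlapped those of another. Fat body had -0.39 in library 1 over 451 windows and -0.60 in library 2, for which only 191 windows carry a value. Over these unlike sets of windows the fat body values overlapped those of Rif1 salivary gland. Over the 191 windows with values in all 12 libraries, both fat body libraries (-0.55 and -0.60) lay below both Rif1 libraries (-0.29 and -0.27). Follicle cells had -0.13 and -0.006, and wing discs 0.14 and 0.21. The wing disc was the only group in which both libraries were above 0.

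The order of the salivary gland genotypes was less clear when each window was ranked among all windows of its library, since SuUR library 2 then lay between the wild-type libraries. The mean percentile, with 100 the earliest, was 26.2 and 22.7 in wild-type salivary gland and 36.2 and 25.4 in SuUR salivary gland. It was 43.1 and 39.8 in Rif1 salivary gland, 45.4 and 39.5 in fat body, 47.7 and 51.6 in follicle cell and 55.6 and 57.6 in wing disc. In wild-type salivary gland 60.8% and 72.7% of the windows lay in the latest quartile of the library, against 19.8% and 16.9% in wing disc. SuUR library 2, at 62.5%, was as late by this measure as the wild type, whereas SuUR library 1 had 34.4%.

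Coverage of the complex was not equal. In the 6 salivary gland libraries and fat body library 1 the same 4 windows carry no value, 1 in pb at chr3R:6737400-6740100, 2 over bcd at chr3R:6757100-6759600 and 1 at a cluster of tRNA and 7SL RNA genes at chr3R:6819600-6822800. Fat body library 2 lacks 38 windows at the proximal end and a run of 222 windows, chr3R:6837900-7059900, from within Scr to the distal end. Antp and ftz therefore have a fat body value from library 1 alone. Adjacent windows varied widely, with an SD over windows between 0.80 and 1.03 in the 12 libraries. The correlation between replicates over the windows of the complex was 0.65 for wild-type salivary gland, 0.42 for SuUR, 0.39 for Rif1, 0.21 for fat body, 0.84 for follicle cell and 0.63 for wing disc, and it was 0.77 to 0.99 after the authors' smoothing. Values are therefore given as means over genes or over bins of 50 windows. No read counts are in the tables, so the depth behind a value is unknown.

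**Figure D1:**
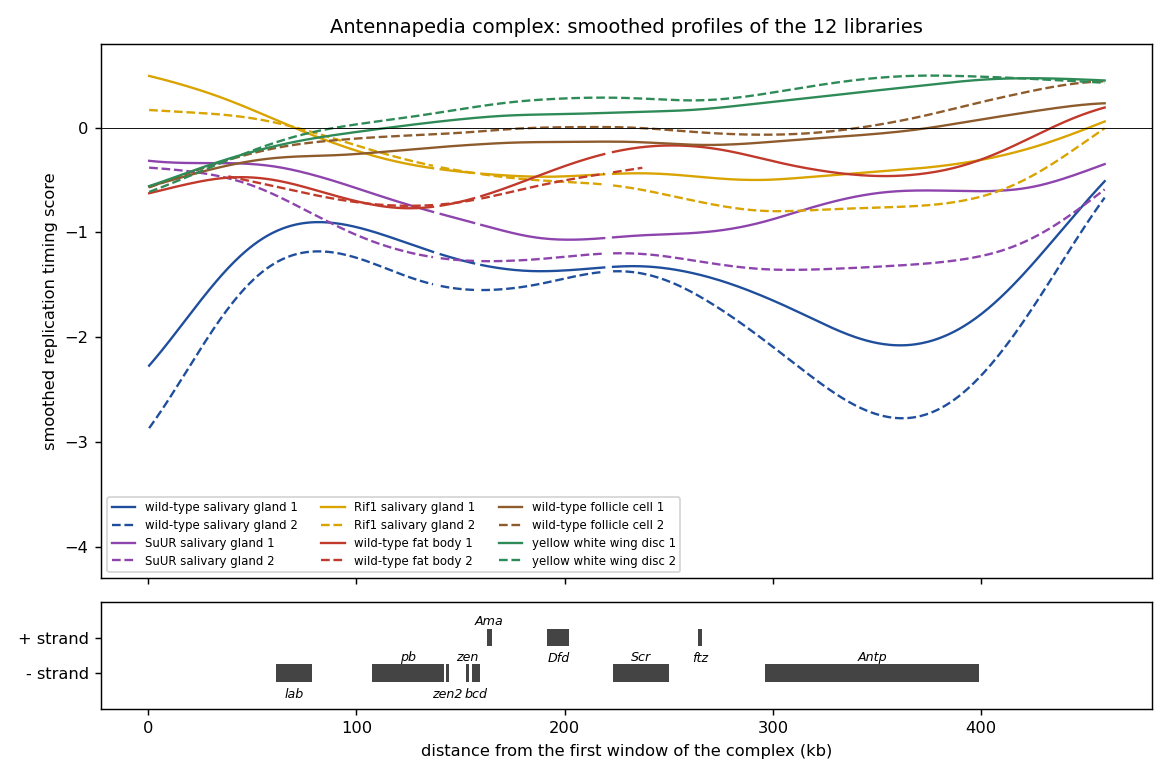
Smoothed RT score (vertical axis) of the 12 libraries against distance in kb from the first window of the complex, with solid lines for replicate 1 and dashed lines for replicate 2, and the homeobox genes and Ama drawn below by strand. Wild-type salivary gland lies low at the proximal end and within Antp, where library 1 reached -2.08 and library 2 -2.77, and the next lowest value within Antp in any library of another group is -1.36.

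In wild-type salivary gland the complex was a landscape of a shoulder and a trough. The smoothed profile began low at the proximal edge, at -2.27 and -2.87, rose to -0.90 and -1.18 between lab and the cuticle genes, and fell again over Antp. The deepest point within Antp was -2.08 in library 1 and -2.77 in library 2, at 38.3 and 37.3 kb inside the gene from its annotated 5′ end. From there the profile rose to -0.51 and -0.67 at the distal edge, over dj. The unsmoothed score of dj itself was low, at -2.92 and -1.39 over 2 windows, so the smoothed rise does not describe this gene. Both libraries placed the trough within 1 window of each other.

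The proximal edge is the end of a UR region. With UR called as runs of at least 50 kb whose 21-window running median fell short of the mean by over 1 SD (a limit of -2.85 in wild-type salivary gland), a region of 80.0 kb at chr3R:6522100-6602100 reached 2 of the 455 windows (0.440%). CG31482 spans this edge, and it was at -3.69 and -4.53 in wild-type salivary gland. Within Antp the running median fell to -2.74 at chr3R:6957900-6958900, just above the threshold, and no UR region was called there. No UR region was called in the complex in any other group. The 2 windows depend on the threshold. A score limit of -1 put 80.4% of the windows in called regions, short gaps included. These were regions of 144.8 kb and 196.0 kb and the distal part of a region of 139.7 kb.

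Antp specifies the identity of the thorax, and its transcription unit, chr3R:6896253-6999228 on the minus strand, covers 104 windows. Antp was at -2.01 and -2.68 in wild-type salivary gland, the lowest of the 10 named genes (-2.34 ± 0.47, SD, n = 2). It was at -0.59 and -1.26 in SuUR and at -0.42 and -0.70 in Rif1 salivary gland. It was at -0.51 in the fat body library with a value, at -0.03 and 0.05 in follicle cell and at 0.34 and 0.50 in wing disc. Every library of the 5 other groups was above both wild-type salivary gland libraries. The gene CG46458 lies within the Antp unit, and its windows are not independent of those of Antp.

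Cut into 10 equal steps from its 3′ to its 5′ end, Antp was not uniform in wild-type salivary gland. The second step, at chr3R:6906900-6917900, was at -1.33 and -1.79, and the steps from 4 to 10 were between -1.97 and -2.50 in library 1 and between -2.81 and -3.17 in library 2. In SuUR salivary gland steps 2 to 10 lay between -0.24 and -0.76 in library 1 and between -0.98 and -1.37 in library 2. The first step, which holds the homeobox and the 3′ end, stayed low in both mutants. It was at -1.50 and -1.98 in wild type, at -1.32 and -1.74 in SuUR and at -1.14 and -1.41 in Rif1.

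The 250 bases before the annotated 5′ ends of Antp and Scr are printed since these genes stand at or near opposite ends of the order in wild-type salivary gland. Capitals mark GAGAG or its complement CTCTC, the letters bound by the GAGA factor, on either strand and with overlapping matches counted separately. The Antp stretch is chr3R:6999229-6999478 and the Scr stretch chr3R:6849982-6850231, both from the minus strand of the RefSeq Release 6 assembly.
Antp: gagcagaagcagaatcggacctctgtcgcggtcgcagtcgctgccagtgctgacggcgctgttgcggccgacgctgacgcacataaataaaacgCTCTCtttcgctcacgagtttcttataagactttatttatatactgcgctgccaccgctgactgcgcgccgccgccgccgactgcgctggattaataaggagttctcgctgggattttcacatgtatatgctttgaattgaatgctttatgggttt
Scr: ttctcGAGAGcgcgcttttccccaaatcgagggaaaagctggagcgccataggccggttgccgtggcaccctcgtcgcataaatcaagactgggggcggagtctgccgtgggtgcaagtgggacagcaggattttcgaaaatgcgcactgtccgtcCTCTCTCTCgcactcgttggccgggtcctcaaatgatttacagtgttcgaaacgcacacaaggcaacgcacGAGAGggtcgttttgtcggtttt
Scr had 5 matches and Antp 1. Dfd had 6, ftz 2, lab, zen, bcd and Ama 1 each, and pb and zen2 had 0. Of 17573 such stretches over all genes of the arms, 25.3% held a match. A match is a description of the letters and not a binding site. The window that holds the Antp stretch was at -1.89 and -2.72 in wild-type salivary gland and at 1.09 and 0.35 in wing disc. The window that holds the Scr stretch was at -1.36 and -0.54 in wild-type salivary gland and at 0.28 and 0.58 in wing disc.

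Scr sets the identity of the labial and first thoracic segments and is needed for the salivary gland to form in the embryo. Its transcription unit, chr3R:6823120-6849981 on the minus strand, covers 28 windows, and was at -0.96 and -0.85 in wild-type salivary gland (-0.90 ± 0.08). It was at -0.47 and -0.80 in SuUR, -0.14 and -0.32 in Rif1, -0.11 and -0.44 in fat body, 0.25 and 0.27 in follicle cell and 0.38 and 0.60 in wing disc. Scr was thus well above Antp in wild-type salivary gland, and both genes were among the highest 3 of the 10 in follicle cell and wing disc.

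The lab gene, chr3R:6661427-6678590 on the minus strand, acts in the head and the midgut. It was the highest of the 10 genes in wild-type salivary gland, at -0.70 and -0.84. Scr was the next highest. In SuUR lab was at -0.10 and -0.79, in Rif1 at -0.21 and 0.10, and in wing disc at -0.12 and 0.15. SuUR library 2 lay between the wild-type values of lab, so these genotypes overlapped there. Both Rif1 values of lab were above both wild-type values and overlapped those of SuUR.

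The pb gene (chr3R:6707800-6742063, minus strand), which acts in the mouthparts, and Dfd (chr3R:6791836-6802428, plus strand), which acts in the mandibular and maxillary segments, were intermediate. The pb gene was at -1.17 and -1.93 in wild-type salivary gland, at -0.80 and -1.20 in SuUR and at -0.35 and -0.33 in Rif1. In fat body pb was at -1.11 and -0.87, as low as in SuUR. Dfd was at -1.08 and -1.24 in wild-type salivary gland and at -1.01 and -1.36 in SuUR, so the genotypes overlapped. In Rif1 Dfd was at -0.48 and -0.28.

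The remaining homeobox genes, bcd, zen, zen2 and ftz, have lost the homeotic role. The product of bcd is the maternal determinant of the anterior embryo, zen and zen2 belong to the dorsal side of the embryo and ftz is a pair-rule gene. These genes cover 2 to 4 windows each. In wild-type salivary gland zen2 was at -2.46 and -2.11, zen at -1.55 and -1.85, bcd at -1.03 and -1.35 and ftz at -1.51 and -1.89. In follicle cell ftz, at -1.32 and -0.63, and bcd, at -0.69 and -0.80, were the lowest of the 10 genes, and they were the lowest in wing disc too. Ama, which encodes a secreted immunoglobulin-family protein and lies between bcd and Dfd, was at -1.70 and -1.72 in wild-type salivary gland and at 0.68 and 0.90 in wing disc, the highest of the 10 there. The order of the 10 genes thus differed between groups, with Antp the first from below in wild-type salivary gland and the eighth in wing disc.

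**Figure D2:**
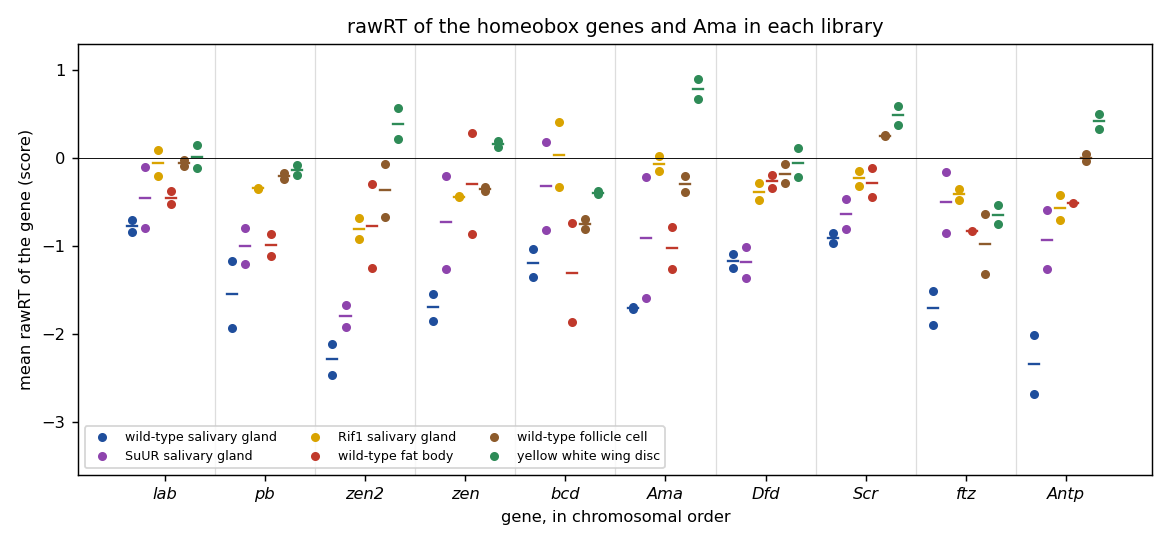
Mean rawRT (vertical axis, score) of the 9 homeobox genes and Ama in chromosomal order, with a point for each library and a bar at the mean of each group. Antp falls to -2.34 on average in wild-type salivary gland and stands at 0.42 in wing disc, and a missing fat body point means that library 2 has no value for the gene.

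The first comparison asked what loss of SuUR did to the complex in salivary gland. The bins of 50 windows over the middle and 5′ parts of Antp rose, and no other bin of the complex passed the test. The more distal of them runs past the 5′ end of Antp, at chr3R:6999228, into the distal flank, so its rise is not that of Antp alone. Of the 9 bins of the complex, 2 were called as higher and none as lower by limma on the bin means (Benjamini-Hochberg adjusted p below 0.05 over 2333 bins). Over all bins 15.3% were called, 15.0% as higher, so a count of 2 in 9 is near the background. The seventh bin, chr3R:6920900-6970900, was at -2.19 and -2.88 in wild type and at -0.50 and -1.27 in SuUR, a difference of 1.65 ± 0.35 (SE, limma adjusted p = 0.037). The eighth bin, chr3R:6970900-7020900, was at -2.04 and -2.71 in wild type and at -0.62 and -1.29 in SuUR, a difference of 1.42 ± 0.33 (limma adjusted p = 0.048). The other 7 bins differed by 0.04 to 0.64, with the smallest difference in the ninth bin, over dj and its neighbours. Whether the bins over Antp changed more than the others was not tested.

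The mean of the whole complex was 0.68 ± 0.22 higher in SuUR, which did not pass the test (limma adjusted p = 0.13), although it did in a fit over all 6 groups (limma adjusted p = 0.0186). At the level of genes, none of the 10 named genes was called in SuUR by limma, against 3.54% of 16372 genes called, 3.39% as higher. Of the 10, 2 had an unadjusted p below 0.05, as did 1754 of the 16372 genes. Antp differed by 1.41 ± 0.41 (limma adjusted p = 0.18) and ftz by 1.20 ± 0.38 (limma adjusted p = 0.25). Among all 61 genes of the complex, of which 56 could be tested, only glob2, a globin gene near the proximal edge, and lncRNA:CR45899, just beyond the 5′ end of Antp, were called, with differences of 2.20 and 2.06. The call of the Antp bins did not hold under quantile normalization, under scaling by the signal SD or without either SuUR library or wild-type library 2, each of which gave 0 bins. After smoothing 11.1% of the bins were called.

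The second comparison asked the same of Rif1, which encodes a regulator of replication timing that recruits a phosphatase. The whole complex rose in Rif1 salivary gland. All 9 bins were called as higher by limma, against 40.9% of 2350 bins called over the arms and 28.7% called as higher. The differences ranged from 0.62 ± 0.15 in the ninth bin (limma adjusted p = 0.028) to 2.04 ± 0.26 in the seventh (limma adjusted p = 0.0029). The mean of the complex rose by 1.23 ± 0.18 (limma adjusted p = 0.0051). Of the 451 windows with values, 323 (71.6%) had both Rif1 libraries above both wild-type libraries, against 32.5% of all windows, and 8 (1.77%) had both below, against 19%.

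Of the 10 named genes, 3 were called as higher in Rif1, against 7.21% of 16627 genes called and 6.25% called as higher. These were Antp, with a difference of 1.78 ± 0.37 (limma adjusted p = 0.032), Ama, with 1.65 ± 0.32 (limma adjusted p = 0.023), and zen2, with 1.48 ± 0.34 (limma adjusted p = 0.045). The other 7 named genes differed by 0.67 to 1.29 in the same direction and did not pass. The median difference of the 10 genes was 1.25, beside -0.06 over all genes tested. Near the proximal edge CG31482 rose by 3.55, glob2 by 3.14, sowi by 2.47 and sunz by 1.91 (limma adjusted p = 0.0095, 0.00235, 0.0064 and 0.014). Of all 61 genes of the complex 56 could be tested and 11 were called, all as higher. The count of bins rested on the replicates, at 11.1% without Rif1 library 1, 55.6% without Rif1 library 2 and 44.4% under quantile normalization. Without Rif1 library 1 the mean of the complex did not pass (1.14, limma adjusted p = 0.0635), and none of the 3 gene calls passed with any of the 4 libraries left out or under quantile normalization.

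Set against each other, the mutants differed by 0.35 to 0.70 in the 9 bins, with Rif1 the higher, and 1 bin passed the test. Averaged over the complex the score was 0.55 ± 0.20 higher in Rif1 than in SuUR (limma adjusted p = 0.084). This is 11.1% of the bins, below the 25.6% of 2351 bins called over the arms and the 18.9% called as higher. The bin called was the fourth bin, over Dfd at chr3R:6768600-6818600, at -1.28 and -1.21 in SuUR and at -0.51 and -0.58 in Rif1, a difference of 0.70 ± 0.16 (limma adjusted p = 0.023). In the seventh and eighth bins the difference was 0.39 ± 0.27 and 0.35 ± 0.27 (limma adjusted p = 0.33 and 0.39), neither of which passed, and whether bins differ from each other was not tested. None of the 10 named genes was called between the mutants, against 0.461% of 16494 genes called and 0.43% called as higher. Of the 10, 1 gene, zen2, had an unadjusted p below 0.05, as did 2459 of the 16494 genes. The comparison shares its libraries with those against wild type. Over the arms, 913 of 2351 bins had an unadjusted p below 0.05. Of the 9 bins, 6 had an unadjusted p below 0.05, and the count of 1 depended on the setting, with 55.6% of the bins called on the smoothed table, 66.7% in a fit over all 6 groups and none without either Rif1 library or without SuUR library 2.

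**Figure D3:**
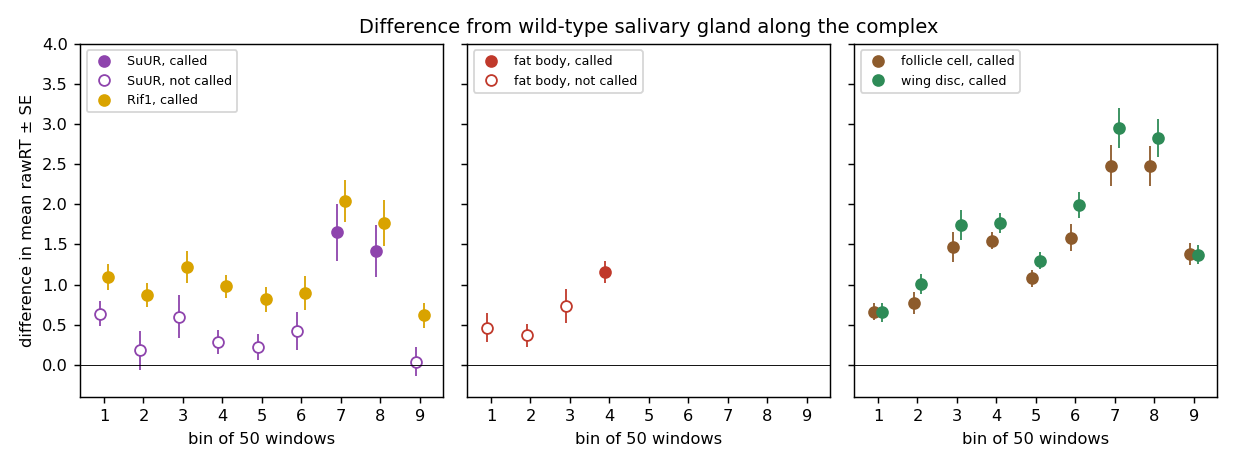
Difference in mean rawRT from wild-type salivary gland (vertical axis, score, with the SE from limma) in the 9 bins of 50 windows along the complex, numbered from the proximal end. Filled points passed an adjusted p of 0.05, open points did not, and fat body has no test in bins 5 to 9. All Rif1, follicle cell and wing disc points are filled, and of the SuUR points only bins 7 and 8 are, at 1.65 and 1.42.

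The tissue comparisons asked how the complex replicates in cells with other fates. In fat body, which is also polyploid and was measured in the same way as salivary gland, the comparison rests on the windows with values in both libraries. Over the 191 windows with values in all 12 libraries, the mean was -0.55 and -0.60 in fat body and -1.11 and -1.31 in wild-type salivary gland, a difference of 0.63 ± 0.14 (limma adjusted p = 0.045). With all windows of each library the difference was 1.11 (limma adjusted p = 0.029, and 0.0696 to 0.121 with 1 library left out), a value that compares fat body library 2 over the proximal part with the other libraries over the whole. Of the 9 bins 4 could be tested and 1 was called, against 22.3% of 2267 bins called and 13.9% called as higher. It was the bin over Dfd, at -0.38 and -0.35 in fat body and at -1.46 and -1.59 in wild-type salivary gland, a difference of 1.16 ± 0.13 (limma adjusted p = 0.018). The call was lost whichever of the 4 libraries was left out, with 0 bins called in each case.

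At the level of genes no gene of the genome was called between fat body and salivary gland by limma, although 3580 of 16294 had an unadjusted p below 0.05. Among the 8 named genes with values in both libraries, zen2, zen and Dfd had an unadjusted p below 0.05. The fat body profile was lowest at pb, where the smoothed score was -0.77 and -0.75, and its values at bcd, -0.74 and -1.86, lay on either side of those of salivary gland. Fat body library 1 was at 0.36 in the ninth bin, where wild-type salivary gland was at -0.86 and -1.08.

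In follicle cell all 9 bins were called as higher than in wild-type salivary gland, against 66.3% of 2354 bins called and 43.1% called as higher. Averaged over the complex the score was 1.53 ± 0.15 higher (limma adjusted p = 0.0021). Of the 10 named genes 8 were called as higher, the exceptions being bcd and ftz, and 40.3% of 16741 genes were called, 17.8% as higher. For bcd, 2 windows carry values in salivary gland and 4 in follicle cell and wing disc, so its differences compare unlike sets of windows. The largest difference among the 10 was that of Antp, 2.35 ± 0.28 (limma adjusted p = 0.0043). Scr differed by 1.16 ± 0.20 (limma adjusted p = 0.011) and lab by 0.71 ± 0.20 (limma adjusted p = 0.040). Without follicle cell library 1 the calls of lab, pb, zen, Ama, Dfd and Scr were lost, and without library 2 that of zen2 as well, whereas Antp passed in both. Under quantile normalization the calls of Antp and Scr held and the other 6 were lost.

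In wing disc all 9 bins were called as higher too, against 57.6% of 2352 bins called and 38.3% called as higher. Averaged over the complex the score was 1.78 ± 0.15 higher (limma adjusted p = 0.000715). Of the 10 named genes 8 were called as higher, the exceptions being lab and bcd, and 20.9% of 16739 genes were called, 11.8% as higher. Antp differed by 2.76 ± 0.33 (limma adjusted p = 0.0046), zen2 by 2.68 ± 0.30 (limma adjusted p = 0.0036) and Ama by 2.50 ± 0.27 (limma adjusted p = 0.0033). Without either wing disc library the calls of pb, Dfd, Scr and ftz were lost, and those of Antp, zen2, zen and Ama held, as they did under quantile normalization. Without wild-type library 1 those of Dfd, Scr and ftz were lost, and without wild-type library 2 that of pb as well. Both sorted-tissue comparisons use the same wild-type salivary gland libraries, and both cross from copy number in whole tissue to sorted nuclei.

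Counted over windows, 193 of 451 (42.8%) had both SuUR libraries above both wild-type libraries, against 27.1% of all windows, and 17 (3.77%) had both below, against 15.3%. Rif1 lay above SuUR without overlap in 174 windows (38.6%), against 25.9%, and below it in 14 (3.10%), against 16.5%. Fat body lay above salivary gland in 83 of 191 windows (43.5%), against 25.9%, and below it in 11 (5.76%), against 22.3%. For each of these pairs the share of higher windows in the complex exceeded that of the arms. Follicle cell lay above in 359 windows (79.6%), against 44%, and below in 19 (4.21%), against 29%. Wing disc lay above in 367 (81.4%), against 40.1%, and below in 15 (3.33%), against 24.9%.

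The arms were also searched for variant regions of the kind the authors define. These are runs of over 200 kb of adjacent bins, each of which differs by a test over its windows. The search is a rule for regions and gives no p here. Bins 7 and 8, which limma called for SuUR, span chr3R:6920900-7020900 and are too short to form such a region alone. The absence of a region therefore does not show that no bin differed. Of the 9 bins of the complex, none lay in such a region for SuUR, against 13.4% of bins over the arms, whereas all lay in one for Rif1, follicle cell and wing disc, against 30.1%, 33.4% and 24.3%. For Rif1 against SuUR the share was 44.4%, against 21.2%, and for fat body 77.8%, against 19.6%. This rule counts windows as replicates. For fat body it also takes in bins that limma could not test, among which bins 6 to 8 hold values of library 1 alone.

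Some windows were low in all salivary gland genotypes and high in both sorted tissues. In 122 of 451 windows (27.1%) all 6 salivary gland libraries lay below all 4 sorted libraries, against 11.6% of all windows, and in 1 window they lay above, against 7.36%. The window with the widest gap lay in Antp at chr3R:6990900-6991900. It was at -2.02 and -3.87 in wild type, -1.02 and -2.17 in SuUR and -1.44 and -1.15 in Rif1 salivary gland, and at 3.05 and 3.33 in follicle cell and 2.20 and 1.74 in wing disc. Fat body library 1 was at -2.20 in this window, within the range of the salivary gland libraries. In the window with the next widest gap, chr3R:6895900-6896900, fat body library 1 was at -0.50, above all 6. The gene lncRNA:CR44932, at the 3′ end of Antp, also had all its salivary gland values low, at -2.79 and -2.10 in wild type, -3.28 and -1.65 in SuUR and -2.38 and -2.36 in Rif1, against 1.23 and 1.14 in follicle cell and 1.40 and 1.75 in wing disc. It was at -0.63 in the fat body library with a value. The dj gene at the distal edge, known for its role in sperm, was another, at -2.92 and -1.39 in wild type and 1.89 and 1.66 in follicle cell. Fat body library 1 was at 0.19 for dj. Both genes rest on 2 windows.

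The cuticle genes between lab and pb, which encode structural proteins of the larval and pupal cuticle, are another family within the complex. Of the 8, none was called in SuUR by limma, against 3.54% of all genes. An unadjusted p below 0.05 was found for 2 of them, and for 1754 of 16372 genes. These 2 moved in opposite directions, Ccp84Ag by 1.05 and Ccp84Aa by -1.57. In Rif1 1 was called as higher, against 6.25% of all genes, in follicle cell 1, against 17.8%, and in wing disc 3, against 11.8%. Their median difference from wild-type salivary gland was 0.43 in SuUR, 0.90 in Rif1, 0.28 in follicle cell and 0.77 in wing disc. In fat body it was -0.38, beside -0.15 over all genes tested, and no cuticle gene was called there by limma (0 at an unadjusted p below 0.05). Whether cuticle and homeobox genes differ was not tested. The gene called in Rif1 was Ccp84Ad, with a difference of 1.66.

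The bithorax complex, the other homeotic cluster of 3R, was the closest comparison. Over its 311 windows, from Ubx to Abd-B, the mean rawRT was -3.63 and -4.48 in wild-type salivary gland, -0.89 and -1.34 in SuUR and -0.34 and -0.73 in Rif1. The bithorax complex was thus 2.21 and 2.69 below the Antennapedia complex in the wild-type libraries, and the gap was 0.16 and 0.22 in SuUR. The change in SuUR was 0.68 in the Antennapedia complex and 2.94 in the bithorax complex, a difference of -2.26 ± 0.21 (limma adjusted p = 0.0027, and 0.072 and 0.0748 without either SuUR library), and in Rif1 it was 1.23 and 3.52, a difference of -2.29 ± 0.21 (limma adjusted p = 0.000775). Between Rif1 and SuUR the complexes differed by 0.55 and 0.58, and the difference between these values of -0.03 ± 0.17 did not pass the test (limma adjusted p = 0.90). The same difference was -2.43 ± 0.19 for follicle cell and -2.01 ± 0.18 for wing disc (limma adjusted p = 0.00135 and 0.000825). For fat body it was -2.56 ± 0.36 (limma adjusted p = 0.023), but library 2 enters with 6 windows of the bithorax complex. Over the windows with values in all 12 libraries, which leave those 6 of the bithorax complex, the difference turned to 0.69 ± 0.48 in SuUR and 0.12 ± 0.38 in Rif1, and no comparison passed (limma adjusted p = 0.17 to 0.81).

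Gene by gene, the low score of the bithorax complex was greatest at abd-A, which specifies the abdominal segments. It was at -5.06 and -6.18 in wild-type salivary gland, and it rose by 4.33 in SuUR and by 5.01 in Rif1 (limma adjusted p = 0.0026 and 0.00065). Antp was at the level of Ubx, which was at -2.05 and -2.61 in wild-type salivary gland, and of Abd-B, which was at -2.14 and -2.47. Ubx and Abd-B differed by 1.67 and 1.29 in SuUR, neither called (limma adjusted p = 0.066 and 0.18), and both were called in Rif1, with 2.00 and 1.92 (limma adjusted p = 0.020 and 0.016). In wild-type salivary gland Antp thus lay with the bithorax genes on either side of abd-A, and Scr and lab lay above them. This level was not particular to Antp, since zen2 was at -2.46 and -2.11 there, over 2 windows.

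**Figure D4:**
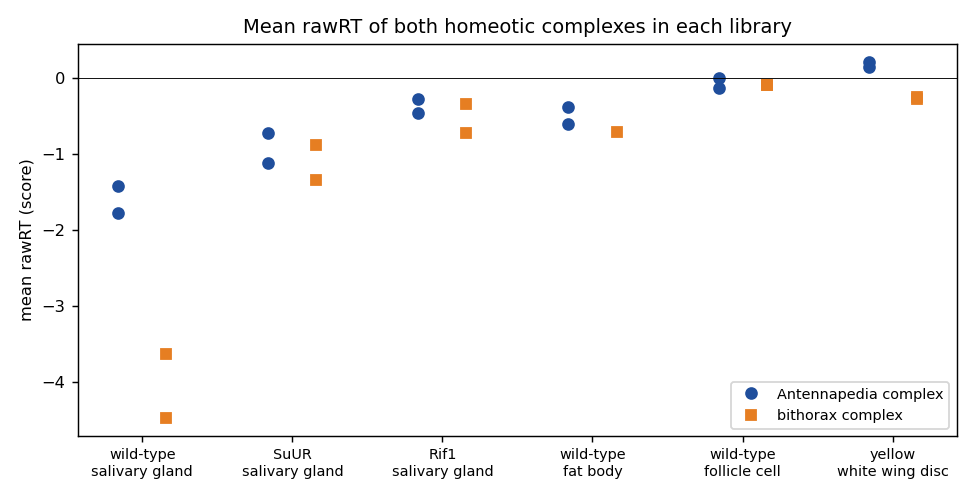
Mean rawRT (vertical axis, score) of the Antennapedia complex (circles) and the bithorax complex (squares) in each library of the 6 groups. The squares of wild-type salivary gland, at -3.63 and -4.48, lie far below its circles, at -1.42 and -1.78, and in the SuUR, Rif1, follicle cell and wing disc libraries the complexes lie at most 0.46 apart. The fat body square is library 1 alone.

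Other developmental regulators that are Polycomb targets elsewhere in the genome were looked at for comparison. Of 18 listed, 17 could be tested in SuUR and 1 was called as higher, against 3.39% of all genes. It was tsh, which acts in the trunk, with a difference of 1.70. In Rif1 2 of 18 were called as higher, against 6.25% of all genes, tsh with 2.08 and salm, which acts in trachea and wing, with 1.76. Their median difference was 0.01 in SuUR and 0.02 in Rif1, beside -0.03 and -0.06 over all genes. In follicle cell 5 of 18 were called as higher and 4 as lower, against 40.3% of all genes called and 17.8% called as higher. In wing disc 7 were called as higher and none as lower by limma, against 20.9% called and 11.8% called as higher. There 9 had an unadjusted p below 0.05, as did 6508 of 16739 genes. The 10 genes of the Antennapedia complex had no call as lower in any comparison run. Over all genes tested, calls as lower were 25 of 16372 in SuUR, 159 of 16627 in Rif1 and 5 of 16494 in Rif1 against SuUR. They were 0 of 16294 in fat body, 3770 of 16741 in follicle cell and 1522 of 16739 in wing disc. Outside the sorted tissues such calls were thus rare over all genes, and their absence there is not particular to the complex.

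Base composition and exons were looked at as features the choice of windows did not use. The GC content of the complex was 41.5%, against 42.6% for 3R, and it ranged from 40.5% in the distal flank to 43.1% in the proximal flank. Across the windows of the complex the correlation of GC content with rawRT was 0.11 to 0.34 in the salivary gland libraries and -0.08 to 0.03 in the others. Windows are not independent replicates, and the authors had corrected salivary gland and fat body values for GC. The 146 windows that overlap an exon were at -1.24 and -1.35 in wild-type salivary gland, and the 309 without an exon at -1.50 and -1.98. SuUR (-0.58 and -0.99 with an exon, -0.80 and -1.17 without) and Rif1 salivary gland (-0.18 and -0.31, -0.33 and -0.53) had the same order. In follicle cell the order was the opposite, -0.31 and -0.18 with an exon and -0.04 and 0.07 without. It was also the opposite in wing disc, 0.01 and 0.11 with an exon and 0.21 and 0.26 without. Fat body had -0.44 and -0.84 with an exon and -0.36 and -0.41 without, library 2 over fewer windows.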

How the data were processed

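The data are 12 libraries in 6 groups of 2, grouped by the labels. The deposited tables hold scores, with no read counts, so the depth behind each value is unknown and no counting interval is given. The authors mapped reads to dm6 with BWA mem (0.7.17), removed duplicates with Picard and counted unique reads in windows of 1000 uniquely alignable bases. For salivary gland and fat body the authors corrected for GC content, removed outlying windows and scaled the deposited score outside UR and pericentromeric regions. A further deposited table holds the same score after a cubic smoothing spline. The follicle cell and wing disc scores are S-phase over G1 profiles, published earlier, whose scaling is not given in the sources used here.

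Means of rawRT over bins of 50 windows (at least 25 values), over genes and over the complex were compared with limma (3.58.1, R 4.3.3), with 2 libraries per group in each fit and Benjamini-Hochberg adjustment over all features of the arms (threshold 0.05). The means of the Antennapedia and bithorax complexes and their difference were appended to the bins of the fit. Tables were handled in Python (3.11.15). An exact permutation test of 2 libraries against 2 cannot go below p = 0.33, so no such test is given. Tested on simulated data, the SuUR comparison of 2333 bins recovered 77.5% of 200 bins shifted by about 1.5, with 2 other bins called. Without any shift 0 bins were called. The simulation shuffled the spread over bins, so it does not give the recovery for bins of wide spread, such as those over Antp.

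UR regions were runs of windows with a running median (21 windows) below the mean by over 1 SD, joined over gaps of up to 10 windows and at least 50 kb long. Coordinates of windows are rounded to 100 bases, and genes and sequences are from RefSeq on the same assembly. The genes named are the homeobox genes of the complex and Ama, the genes at the lowest and highest smoothed wild-type windows and at UR edges. Others were named after their values were seen, among them sowi, sunz, lncRNA:CR44932, lncRNA:CR45899 and Ccp84Ad. The windows and gene lists were chosen with earlier results of these data known. Alternatives changed the bin size, the minimum of values, the scaling, the table, the replicate block, the fit and the libraries. A crossed replicate block for fat body and the restriction to windows with values in all 12 libraries were added after seeing the data. Some homeobox sequences are not reported here.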

Additional observations from a re-analysis of the deposited data

Results flagged for a closer look

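The difference between the Antennapedia and bithorax complexes in the same contrast passed its own test in 5 comparisons. The change in the Antennapedia complex minus that in the bithorax complex was -2.26 ± 0.207 (SE) in SuUR against wild-type salivary gland and -2.293 ± 0.211 in Rif1 against wild type (limma adjusted p = 0.00274 and 0.000775). It was -2.427 ± 0.188 in follicle cell and -2.011 ± 0.182 in wing disc, each against wild-type salivary gland (limma adjusted p = 0.00135 and 0.000825). In fat body it was -2.555 ± 0.357 (limma adjusted p = 0.023), with 6 windows of the bithorax complex in fat body library 2. The wild-type libraries are shared by all 5 comparisons, and these are the libraries in which the complexes stand apart. With 1 library left out the difference stayed negative in all 5, but not every pass held. With 2 libraries per group no library could be looked at as standing apart from its own group.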

How the results depend on the processing

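The share of the 9 bins called was 22.2% for SuUR as reported. It was 0% under quantile normalization, scaling by the signal SD and the ANOVA over windows (runs over 200 kb), and 11.1% after smoothing. For Rif1 it was 100% as reported and 44.4% under quantile normalization. For Rif1 against SuUR, 11.1% as reported, it was 60.0% with bins of 100 windows, 0% after scaling by the signal SD, 55.6% on the smoothed table, 66.7% in a fit over all 6 groups and 44.4% by ANOVA. For fat body, 11.1% as reported, it was 20.0% with bins of 100 windows, 33.3% with no minimum of values, 33.3% on the smoothed table and over all 6 groups, and 77.8% by ANOVA. The mean of the complex passed for SuUR (0.68, limma adjusted p = 0.0186) and for Rif1 against SuUR (0.55, limma adjusted p = 0.0333) in the fit over all 6 groups, and the latter over the windows with values in all 12 libraries (0.60, limma adjusted p = 0.0493).

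Replicate numbers are shared only as numbers. The correlation of deviations over 2240 bins was 0.36 for SuUR, 0.20 for Rif1, 0.21 for Rif1 against SuUR, -0.68 for fat body, -0.07 for follicle cell and 0.16 for wing disc. With the replicate block the share of bins was 44.4% for SuUR, 66.7% for Rif1 against SuUR and 0% for fat body, and 22.2% for fat body with the crossed block. With the block the mean of the complex was 0.68 for SuUR (limma adjusted p = 0.0110), 0.55 for Rif1 against SuUR (0.0293) and 1.11 for fat body (0.108), and the fat body difference between the complexes was -2.56 (0.111).

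With 1 library left out, the lone library being assumed to vary like the other group, the share of bins ranged from 0 to 22.2% for SuUR, 11.1 to 100% for Rif1, 0 to 22.2% for Rif1 against SuUR, 0 to 0% for fat body and 77.8 to 100% for follicle cell and wing disc. The mean of the complex ranged from 1.05 to 1.41 for Rif1 and 0.92 to 1.29 for fat body. The difference between the complexes ranged from -2.50 to -2.02 for SuUR, -0.14 to 0.0719 for Rif1 against SuUR and -2.99 to -2.12 for fat body.

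Over the windows with values in all 12 libraries, with 6 left in the bithorax complex, the difference between the complexes turned for SuUR (0.69) and Rif1 (0.12), both of which had passed, and no longer passed for fat body (-1.06), follicle cell (-0.45) and wing disc (-0.45). Directions of named genes turned only for values that did not pass. Under quantile normalization these were zen2 (-0.44) and dj (-0.46) in SuUR, dj (-0.54) in Rif1, ftz (-0.0173) and dj (-0.0803) in Rif1 against SuUR, and bcd (-0.23) and ftz (-0.47) in follicle cell. With windows at least 50% inside the gene, bcd in fat body was 0.41. With 1 library left out, the ranges were -0.0220 to 0.66 for lab, -0.20 to 0.16 for Dfd and -0.48 to 1.05 for dj in SuUR, -0.0204 to 1.51 for dj in Rif1, and -0.67 to 0.45 for bcd in fat body. For Rif1 against SuUR they were -0.24 to 0.82 for zen, -0.14 to 0.85 for bcd, -0.26 to 0.43 for ftz and -0.19 to 1.12 for dj. Quantile normalization moved the median of all bins by -0.11 for SuUR, -0.27 for Rif1, -0.17 for Rif1 against SuUR, -0.13 for fat body, -0.29 for follicle cell and -0.31 for wing disc. The share of windows in UR was 80.4% at a limit of -1, 0.220% with a running median of 51 windows, 0% on the smoothed table and 0.440 to 0.879% with 1 library left out. The causes were not tested, and the depth is unknown.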
